A study of Mus musculus with 4 samples.

Results

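Genes through which regulatory T cells (Treg cells) restrain other cells were followed in CD4 T cells of the mouse lung. The 7 genes were Il10, Ebi3, Fgl2, Lrrc32, Entpd1, Nt5e and Cd83, chosen by symbol from 31053 measured genes, and all 7 had UMIs in both libraries. The tumor library came from lungs of C57BL/6 mice killed 3 weeks after TC1 cells, a transplantable mouse lung tumor line, had been injected into the tail vein, and the normal library from lungs of age-matched mice without tumor cells. Each tissue gave 1 library of sorted live CD4+ cells made with 5′ droplet chemistry, plus 1 T cell receptor library, and neither label gives a number of animals or says whether they were pooled. The lungs were perfused and digested with collagenase, and CD4+ cells were enriched on magnetic beads before the sort. The values are raw counts of unique molecular identifiers (UMIs), that is, of distinct captured molecules. After filtering, 7135 tumor cells with a median of 4173 UMIs and 7082 normal cells with a median of 3906 UMIs were kept, and 80 kept cells of each library carried a barcode found in both. A cell was called Foxp3-positive from 1 Foxp3 UMI on, which gave 1147 tumor cells (16.1%) and 206 normal cells (2.91%). Each group was split by the presence of a Ccr7 UMI, which made 8 cell groups. In the tumor library these were 746 Foxp3-positive Ccr7-negative, 401 Foxp3-positive Ccr7-positive, 1139 Foxp3-negative Ccr7-negative and 4849 Foxp3-negative Ccr7-positive cells. In the normal library the same groups held 31, 175, 682 and 6194 cells, so that the normal Foxp3-positive Ccr7-negative group is small.

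Treg cells are CD4 T cells that depend on the transcription factor Foxp3 and limit immune responses through secreted cytokines, through the activation of latent TGF-beta and through the breakdown of extracellular ATP to adenosine. In tissues and tumors they take on an activated state, while Treg cells that still recirculate through lymphoid organs keep the homing receptor Ccr7. The genes followed here cover several of these routes: Il10, Ebi3 and Fgl2 encode secreted products, Lrrc32 encodes GARP, the surface anchor of latent TGF-beta, Entpd1 and Nt5e encode the ectoenzymes CD39 and CD73, and Cd83 encodes a surface protein of activated immune cells.

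Upstream sequences (the 250 bases before the annotated start, from RefSeq on GRCm38.p6, the mm10 build) were on hand for Ebi3, Fgl2, Entpd1 and Nt5e. Those of Fgl2 and Ebi3 are shown because the log2 levels of these genes had the highest correlation over the 8 groups of any pair of the 7. Both lie on the plus strand, Fgl2 at chr5:21372423-21372672 and Ebi3 at chr17:55952373-55952622, and capitals mark motif matches.
Fgl2: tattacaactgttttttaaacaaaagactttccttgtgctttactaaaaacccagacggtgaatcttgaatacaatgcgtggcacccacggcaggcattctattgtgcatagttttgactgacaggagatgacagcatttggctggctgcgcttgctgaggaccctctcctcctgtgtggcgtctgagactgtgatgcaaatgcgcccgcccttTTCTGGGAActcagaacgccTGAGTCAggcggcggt
Ebi3: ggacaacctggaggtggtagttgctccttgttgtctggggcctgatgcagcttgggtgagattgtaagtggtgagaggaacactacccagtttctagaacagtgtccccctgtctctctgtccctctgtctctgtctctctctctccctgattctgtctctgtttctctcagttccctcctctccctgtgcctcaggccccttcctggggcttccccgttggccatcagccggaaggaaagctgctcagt
Searched on both strands were the AP-1 motif TGANTCA, the cyclic AMP element TGACGTCA, the STAT motif TTCNNNGAA and a narrow form of the kappaB motif. Other forms of the kappaB motif were not searched. The Fgl2 window held TTCTGGGAA starting 36 bases and TGAGTCA starting 16 bases before the start, which do not overlap. In these forms, none of the 4 motifs was found in the windows of Ebi3, Nt5e and Entpd1 (2 windows). Among 32851 mouse promoter windows of this length, 6.75% held the AP-1, 1.55% the cyclic AMP, 7.02% the STAT and 1.41% the kappaB letters. A match describes the letters and no bound factor.

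All 5 genes of the CD4 T cell list (Cd3e, Cd3d, Cd3g, Cd4, Trac) were detected in each of the 8 groups. A UMI of one was found in 98.4% to 100% of the cells of a group. Cd4 itself had a UMI in 61.2% of tumor and 54.9% of normal Foxp3-positive cells, and in 57.4% and 55.6% of Foxp3-negative cells. Of the B cell list 5 of 6 genes were detected in tumor and 3 of 6 in normal Foxp3-positive cells, summing to 21.6 and 14.4 CPM (the UMIs of a gene or list per 1000000 UMIs of all genes in those cells), with Ms4a1 at 0 in both. The myeloid list had 6 of 9 genes detected against 3 of 9, and its 1106 UMIs in tumor Foxp3-positive cells were almost all Cst3 (1079), while C1qa and Adgre1 were at 0. Of the 133 B cell list UMIs in tumor Foxp3-positive cells 123 were Cd79b, found in 8.02% of these cells and 0.468% of tumor Foxp3-negative cells. The lung epithelium list reached 36.9 CPM in tumor and 3.33 CPM in normal Foxp3-positive cells, with Krt8 and Cdh1 at 0. Epcam made up 197 of its 227 tumor UMIs, in 13.5% of tumor and 0.971% of normal Foxp3-positive cells. The endothelium list was Pecam1 alone, at 53.9 CPM in tumor and 121 CPM in normal Foxp3-positive cells. The CD8 list was at 25.8 and 14.4 CPM, with Cd8a at 1 UMI in tumor and 0 in normal cells. Its other gene, Cd8b1, had a UMI in 11.5% of tumor and 6.31% of normal Foxp3-positive cells, and in 5.14% of tumor Foxp3-negative cells. Both NK cell markers were at 0 in Foxp3-positive cells. The part of these other-cell genes in the results was not tested beyond the recounts without marked cells given later.

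In Foxp3-positive cells, 6 of the 7 genes had at least 1.5-fold higher CPM in the tumor than in the normal library, where 28.5% of 9781 genes with at least 20 UMIs over the 2 groups passed that threshold. Lrrc32 alone was at least 1.5-fold lower, as were 10.2% of genes. Without the cells whose barcodes occur in both libraries the counts were the same, 6 and 1 of 7. The highest ratios belonged to Fgl2, at place 13 of 9781 from the top, and Il10, at place 36 by its lower bound, and the lowest of the 6 to Nt5e, at place 1289. Among Ccr7-positive cells the count was again 6 of 7, against 25.6% of genes, with Lrrc32 the 1 that was lower, against 8.47%. Among Ccr7-negative cells it was 5 of 7, against 22.2% of genes, with Lrrc32 lower, against 26.8%, and Cd83 past neither threshold. In this small normal group a count of 0 was set to 3 counts, or 24.2 CPM. A gene seen in tumor cells alone could therefore be called lower, and the 26.8% include such genes. With 1 library per tissue there is no test of these differences, and a library or batch effect cannot be told apart from the tissue. The intervals given below (95%) cover counting error only, and treat UMIs of 1 cell as independent.

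**Figure D1:**
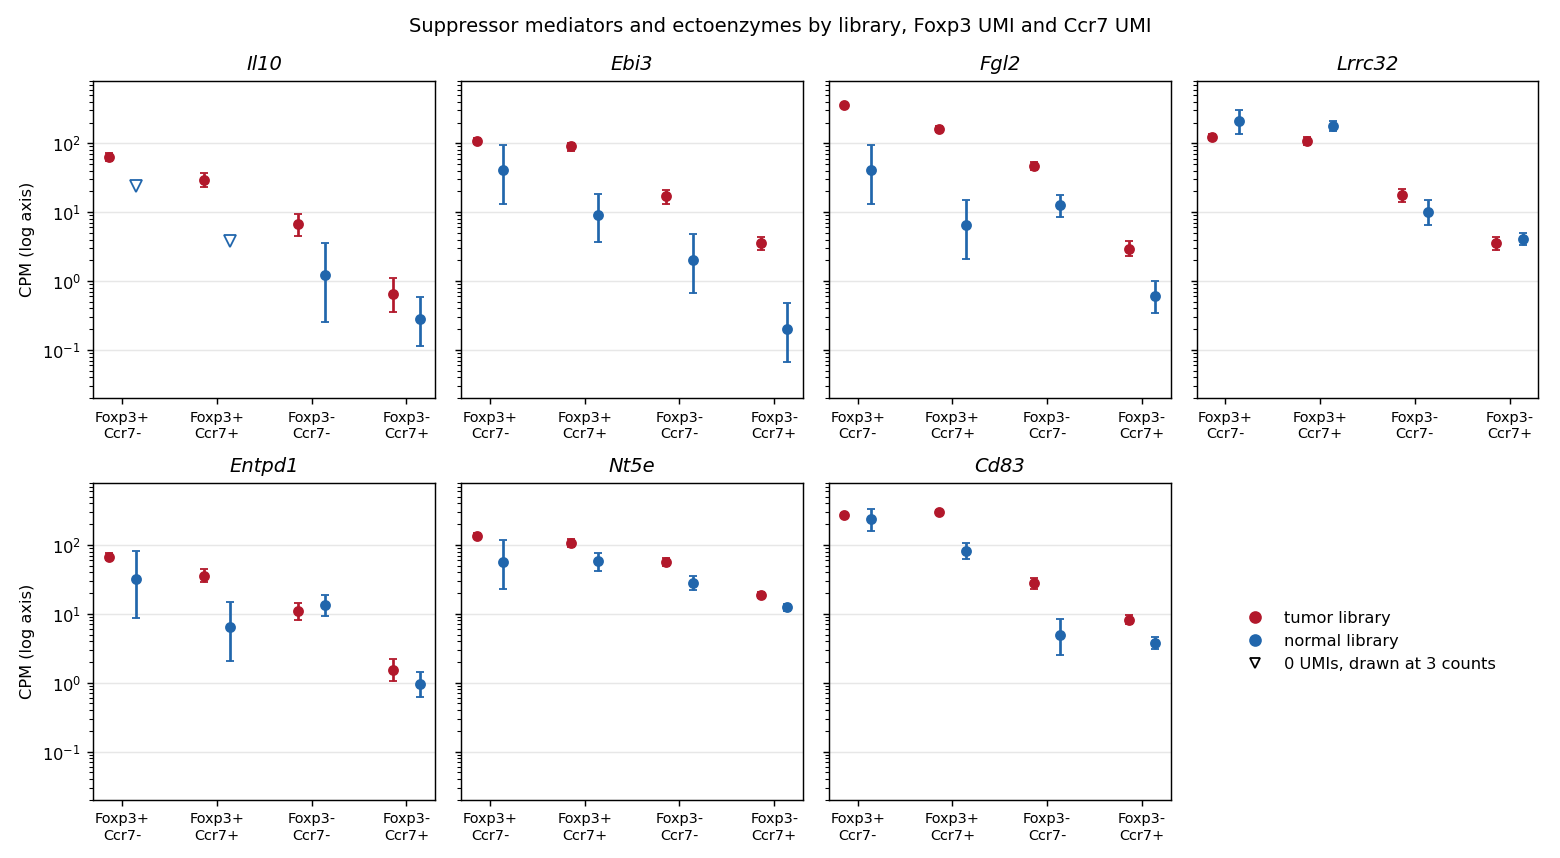
Level of each gene (CPM, log axis) in 8 cell groups: Foxp3-positive or negative (+ or -), Ccr7-positive or negative, tumor library in red left of normal library in blue. Points are sums over the cells of a group, bars 95% Poisson intervals, and open triangles stand at 3 counts for groups with 0 UMIs. Tumor points lie above normal points in Foxp3-positive groups for each gene but Lrrc32.

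Il10 (ENSMUSG00000016529, chr1:131019845-131024970) encodes interleukin-10, a cytokine that dampens antigen-presenting and T cells. In Foxp3-positive cells it had 305 UMIs in the tumor library (49.5 CPM) and none in the normal library, which makes it at least 14.9-fold higher in tumor cells when the normal group as a whole is set to 3 counts. It was detected in 164 of 1147 tumor Foxp3-positive cells (14.3%) and in 0 of 206 normal ones, where 3 counts, taken here as the limit of a count of 0, would be a share of 1.46% of cells with a UMI. The tumor interval of 44.1 to 55.4 CPM lay above the 3.33 CPM that 3 counts make in normal Foxp3-positive cells. The bound was 9.69 in cells with 2 or more Foxp3 UMIs, 10.6 without cells carrying a B cell or myeloid marker and 5.37 on thinned shares. Within the tumor library, Foxp3-positive Ccr7-negative cells were highest (63.0 CPM), followed by Foxp3-positive Ccr7-positive (29.2 CPM), Foxp3-negative Ccr7-negative (6.68 CPM) and Foxp3-negative Ccr7-positive cells (0.658 CPM). In the normal library the gene appeared only as 3 UMIs in Foxp3-negative Ccr7-negative cells (1.22 CPM) and 7 UMIs in Foxp3-negative Ccr7-positive cells (0.283 CPM). The levels of tumor Foxp3-negative Ccr7-positive cells and of both normal Foxp3-negative groups overlapped in their intervals, while the 3 higher tumor groups stood apart from each other and from these. In the 31 normal Foxp3-positive Ccr7-negative cells 3 counts make 24.2 CPM, and in the 175 Ccr7-positive ones 3.87 CPM.

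Of the Il10 UMIs of the tumor library, 87.4% lay in Foxp3-positive cells, against 0 of 10 in the normal library. In tumor Foxp3-positive cells the transcript was unevenly spread: a positive cell held 1.86 Il10 UMIs on average and 8 at most, and 10 cells held 20.0% of the UMIs. Thinning each cell to 2417 UMIs and leaving out shallower ones (68 tumor and 13 normal Foxp3-positive cells) left Il10 in 8.34% of tumor and 0 of 193 normal cells.

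Ebi3 (ENSMUSG00000003206, chr17:55952623-55957022) encodes the beta chain shared by interleukin-27 and interleukin-35. It had 620 UMIs in tumor Foxp3-positive cells (101 CPM) and 12 in normal ones (13.3 CPM), a ratio of 7.55 (interval 4.29 to 14.7). The share of Foxp3-positive cells with an Ebi3 UMI was 33.9% in the tumor and 4.85% in the normal library, and 18.8% and 4.66% after thinning. Over the 8 groups its order was tumor Foxp3-positive Ccr7-negative (108 CPM), tumor Foxp3-positive Ccr7-positive (89.8 CPM), normal Foxp3-positive Ccr7-negative (40.4 CPM from 5 UMIs) and tumor Foxp3-negative Ccr7-negative cells (16.9 CPM). Normal Foxp3-positive Ccr7-positive cells followed (9.02 CPM), then tumor Foxp3-negative Ccr7-positive (3.53 CPM), normal Foxp3-negative Ccr7-negative (2.03 CPM) and normal Foxp3-negative Ccr7-positive cells (0.202 CPM). Neighbours in this order overlapped in their intervals at each step but the last, where normal Foxp3-negative Ccr7-positive cells stood apart.

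The chains that pair with Ebi3 were nearly absent: Il12a, the partner in interleukin-35, had 3 UMIs in tumor and 0 in normal Foxp3-positive cells, and Il27, the partner in interleukin-27, had 0 in both. At 6159263 and 899932 UMIs 3 counts make 0.487 CPM in tumor and 3.33 CPM in normal Foxp3-positive cells, so low levels were not detectable at this depth. Of the IL-12 family list, 3 of 8 genes had enough UMIs: the receptor chain Il12rb1 was 5.78-fold higher in tumor Foxp3-positive cells (57.8 against 10.0 CPM), while Il27ra, the interleukin-27 receptor, and the shared chain Il6st were lower, with ratios of 0.587 and 0.618.

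Fgl2 (ENSMUSG00000039899, chr5:21372673-21378386) encodes fibrinogen-like protein 2, a secreted Treg mediator that acts on antigen-presenting cells through an inhibitory Fc receptor. It had 1703 UMIs in tumor Foxp3-positive cells (276 CPM) and 10 in normal ones (11.1 CPM), a ratio of 24.9 (13.5 to 52.0). It was detected in 50.9% of tumor Foxp3-positive cells and 3.40% of normal ones, and in 38.3% and 1.55% after thinning. The order was tumor Foxp3-positive Ccr7-negative (355 CPM), tumor Foxp3-positive Ccr7-positive (159 CPM), tumor Foxp3-negative Ccr7-negative (47.2 CPM), normal Foxp3-positive Ccr7-negative (40.4 CPM from 5 UMIs) and normal Foxp3-negative Ccr7-negative cells (12.6 CPM). Then came normal Foxp3-positive Ccr7-positive (6.44 CPM), tumor Foxp3-negative Ccr7-positive (2.96 CPM) and normal Foxp3-negative Ccr7-positive cells (0.607 CPM). The 2 tumor Foxp3-positive groups stood apart from each other and from the rest, the next 5 groups each overlapped their neighbours, and normal Foxp3-negative Ccr7-positive cells stood apart again. Its receptor gene Fcgr2b was at 0 in the Foxp3-positive cells of both libraries.

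Lrrc32 (ENSMUSG00000090958, chr7:98489305-98501831), the gene of the TGF-beta anchor GARP, was the exception. It had 717 UMIs in tumor Foxp3-positive cells (116 CPM) and 163 in normal ones (181 CPM), a ratio of 0.643 (0.541 to 0.767), and the share of cells with a UMI was 35.1% in the tumor and 42.2% in the normal library. Tumor Foxp3-positive cells had 122 CPM where Ccr7-negative and 108 CPM where Ccr7-positive, against 210.0 and 177 CPM in normal Foxp3-positive cells. Both normal groups thus came before both tumor groups in the order of levels, with overlap between the Ccr7 groups of a library and none between libraries. Tumor Foxp3-negative cells had 17.6 CPM where Ccr7-negative and 3.53 CPM where Ccr7-positive, against 10.2 and 4.04 CPM in normal ones, and here the libraries overlapped in both Ccr7 groups. After thinning, 22.2% of tumor and 29.0% of normal Foxp3-positive cells had a UMI, a ratio of 0.763, which no longer passes 1.5-fold lower. The call also ended, at 0.668, when cells with surplus receptor chains were kept.

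Of 11 other genes of latent TGF-beta handling and response with enough UMIs, 6 were at least 1.5-fold higher and none lower in tumor Foxp3-positive cells, against 28.5% and 10.2% of genes, with a median log2 ratio of 0.80 beside 0.21 over all genes tested. Among Foxp3-positive Ccr7-negative cells 5 of 10 were higher and 2 lower, against 22.2% and 26.8% of genes. The 2 lower ones were Smad3 at 0.301 (0.151 to 0.683) and Tgfbr1 at 0.536 (0.199 to 2.03). Itgb8, among the 5 higher ones, had 2 normal UMIs in these cells and an interval that includes 1 (0.739 to 22.6). Among the 6 genes higher in all Foxp3-positive cells were Itgav (537 against 74.5 CPM, ratio 7.21) and Itgb8 (40.4 against 10.0 CPM, ratio 4.04). They form an integrin that releases TGF-beta from GARP complexes. Also among the 6 were Furin, the protease that processes the TGF-beta precursor (34.4 against 10.0 CPM, ratio 3.44), and Tgfb1, the cytokine itself (292 against 168 CPM, ratio 1.74). The receptor chain Tgfbr2 was lower in the tumor library at a ratio of 0.696, short of the threshold.

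Entpd1 (ENSMUSG00000048120, chr19:40612366-40741602) encodes CD39, which converts extracellular ATP and ADP to AMP. It had 339 UMIs in tumor Foxp3-positive cells (55.0 CPM) and 9 in normal ones (10.0 CPM), a ratio of 5.50 (2.86 to 12.1). The share of Foxp3-positive cells with a UMI was 23.5% in the tumor and 3.88% in the normal library, and 12.9% and 2.59% after thinning. Tumor Foxp3-positive Ccr7-negative cells were highest (67.9 CPM), followed by tumor Foxp3-positive Ccr7-positive (35.7 CPM) and normal Foxp3-positive Ccr7-negative cells (32.3 CPM from 4 UMIs). Normal Foxp3-negative Ccr7-negative (13.4 CPM), tumor Foxp3-negative Ccr7-negative (10.9 CPM) and normal Foxp3-positive Ccr7-positive cells (6.44 CPM) came next, then the Foxp3-negative Ccr7-positive cells of the tumor (1.55 CPM) and the normal library (0.971 CPM). Neighbours overlapped at each step of this order after the first. Foxp3-positive cells held 80.5% of the Entpd1 UMIs of the tumor library and 13.6% of those of the normal library.

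Nt5e (ENSMUSG00000032420, chr9:88327609-88372089) encodes CD73, which converts AMP to adenosine. It had 765 UMIs in tumor Foxp3-positive cells (124 CPM) and 52 in normal ones (57.8 CPM), a ratio of 2.15 (1.62 to 2.90), with a UMI in 39.6% and 20.4% of cells and in 22.9% and 14% after thinning. Foxp3-positive cells held 54.0% of its UMIs in the tumor and 12.1% in the normal library, the lowest share of the 7 genes in the tumor library. The order was tumor Foxp3-positive Ccr7-negative (136 CPM), tumor Foxp3-positive Ccr7-positive (107 CPM), normal Foxp3-positive Ccr7-positive (58.0 CPM), tumor Foxp3-negative Ccr7-negative (56.8 CPM) and normal Foxp3-positive Ccr7-negative cells (56.5 CPM). The last 3 of these overlapped. The last, at 22.7 to 117 CPM, also overlapped tumor Foxp3-positive Ccr7-positive cells (94.3 to 121 CPM) and the group after it in the order. Normal Foxp3-negative Ccr7-negative (28.4 CPM), tumor Foxp3-negative Ccr7-positive (18.7 CPM) and normal Foxp3-negative Ccr7-positive cells (12.5 CPM) followed, apart from each other.

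Beyond the 2 ectoenzymes, the adenosine and nucleotide list went both ways: of 15 genes with enough UMIs, 4 were at least 1.5-fold higher and 6 lower in tumor Foxp3-positive cells, against 28.5% and 10.2% of genes, with a median log2 ratio of 0.07 beside 0.21 over all genes. In the Ccr7-negative ones alone 1 of 13 was higher and 5 were lower, against 22.2% and 26.8% of genes. Entpd7 was counted among the 5 with 28 tumor UMIs against 0 normal ones, because the normal group was set to 3 counts. Its direction is therefore not known. Cd38, an NAD-consuming ectoenzyme, was higher (20.3 against 4.44 CPM, ratio 4.57), as was the adenosine receptor Adora2a (87.0 against 57.8 CPM, ratio 1.51), just past the threshold. Among Foxp3-positive Ccr7-negative cells Adora2a went the other way, at 102 against 178 CPM (ratio 0.572, 0.372 to 0.924). The ATP-gated channel P2rx7 (12.7 against 25.6 CPM, ratio 0.496) and the ADP-ribosyltransferase Art2b (15.7 against 30.0 CPM, ratio 0.525), which acts on P2RX7 in mouse T cells, were lower. So was Adk, the kinase that clears intracellular adenosine (56.5 against 86.7 CPM, ratio 0.652).

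Cd83 (ENSMUSG00000015396, chr13:43785112-43803133) had 1750 UMIs in tumor Foxp3-positive cells (284 CPM) and 93 in normal ones (103 CPM), a ratio of 2.75 (2.23 to 3.42). It was detected in 38.2% and 17.5% of those cells, and in 29.6% and 14.5% after thinning. The distribution had the longest tail of the 7 genes, with 4.0 UMIs per positive tumor cell on average and 27 at most. The 3 leading groups had close levels, tumor Foxp3-positive Ccr7-positive (304 CPM), tumor Foxp3-positive Ccr7-negative (271 CPM) and normal Foxp3-positive Ccr7-negative cells (234 CPM), the last with an interval of 157 to 336 CPM that covers both others. Normal Foxp3-positive Ccr7-positive cells were lower (82.5 CPM), and the Foxp3-negative groups followed at 27.6 CPM (tumor Ccr7-negative), 8.18 CPM (tumor Ccr7-positive), 4.87 CPM (normal Ccr7-negative) and 3.76 CPM (normal Ccr7-positive), where the last 3 overlapped in turn. Cd86, whose surface display CD83 is known to affect, was 4.0-fold higher in tumor Foxp3-positive cells (44.5 against 11.1 CPM).

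**Figure D2:**
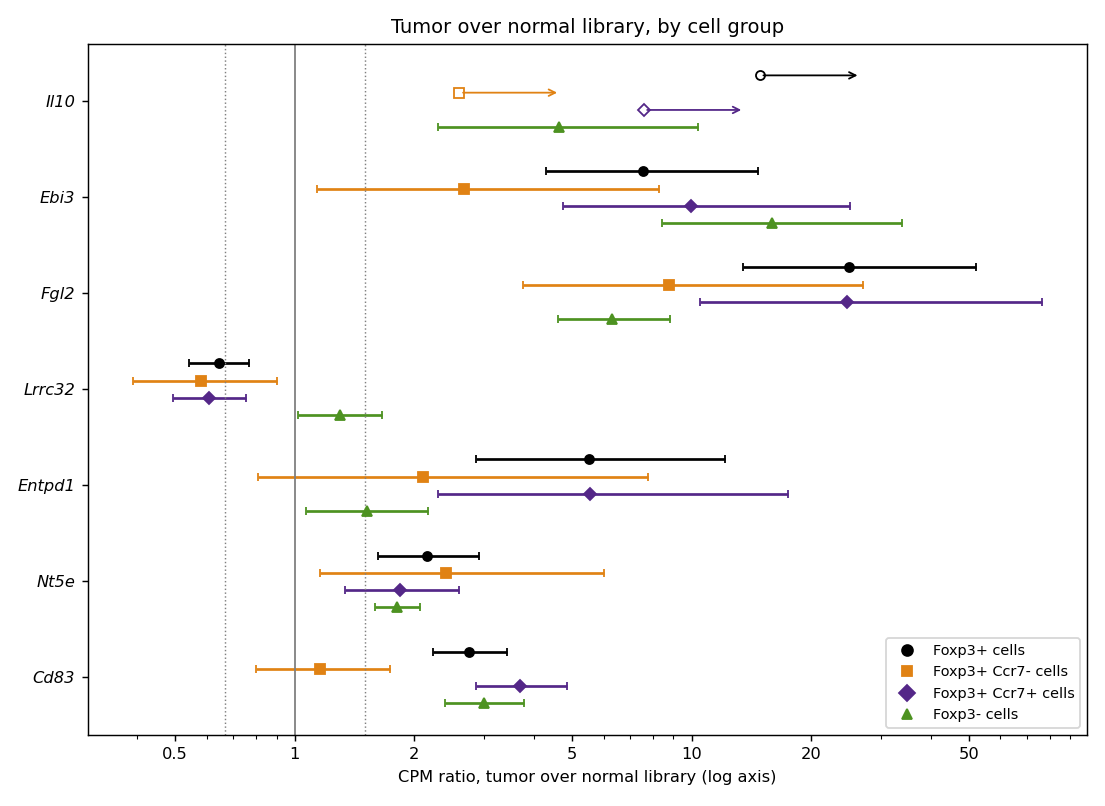
Ratio of CPM, tumor over normal library (log axis), for each gene in all Foxp3-positive cells, the Ccr7-negative and Ccr7-positive ones among them, and Foxp3-negative cells. Bars are 95% intervals of counting error, dotted lines mark 1.5-fold, and open symbols with arrows are lower bounds for Il10, at 0 UMIs in normal Foxp3-positive cells. Lrrc32 lies left of 1 in each Foxp3-positive comparison.

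The tissue ratios were recomputed within each Ccr7 group, since Ccr7-negative cells made up 746 of 1147 tumor but 31 of 206 normal Foxp3-positive cells. Among Foxp3-positive Ccr7-positive cells the ratio was 24.7 for Fgl2 (10.5 to 76.4), 9.95 for Ebi3 (4.75 to 25.0), at least 7.57 for Il10 and 5.55 for Entpd1 (2.29 to 17.5). It was 3.69 for Cd83 (2.86 to 4.84), 1.84 for Nt5e (1.34 to 2.59) and 0.610 for Lrrc32 (0.494 to 0.755) in the same cells. Among Foxp3-positive Ccr7-negative cells Fgl2 was still 8.79-fold higher (3.76 to 27.1), Ebi3 2.67-fold (1.14 to 8.27), Il10 at least 2.60-fold and Nt5e 2.40-fold (1.16 to 6.00). Entpd1 at 2.10 (0.810 to 7.77) and Cd83 at 1.16 (0.800 to 1.73) had intervals that include 1. On thinned shares in these Ccr7-negative cells Ebi3 came to 1.22 and Il10, set against 3 counts in few cells, to 0.940, and without cells carrying a B cell or myeloid marker Il10 came to 1.37, so these calls ended. The difference between the 2 Ccr7 groups was not tested. Genes of naive and recirculating T cells differed within the Ccr7-positive group as well. Klf2, a transcription factor of quiescent T cells, was at 398 CPM in tumor and 1526 CPM in normal Foxp3-positive Ccr7-positive cells. Lef1, a transcription factor of naive T cells, was at 245 against 460.0 CPM in the same cells. Their part in the ratios was not tested.

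The ratios were then recomputed without cells that carried genes of other cell types. Without the Foxp3-positive cells that carried a UMI of a B cell or myeloid marker other than Cst3 and Cd79b, which left 1113 tumor and 200 normal cells, ratios were 24.6 for Fgl2, at least 14.4 for Il10, 7.32 for Ebi3, 5.37 for Entpd1, 2.69 for Cd83, 2.13 for Nt5e and 0.645 for Lrrc32. When Cst3 and Cd79b counted as well, 460 tumor and 131 normal cells remained, and Entpd1 had 119 against 1 UMI (ratio 30.4, 5.35 to 1211) and Fgl2 545 against 3 (ratio 46.4, 15.8 to 226), while 6 of 7 genes again passed.

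All 7 genes were higher in Foxp3-positive than in Foxp3-negative cells of the tumor library, where 29.5% of genes passed 1.5-fold higher and 13.0% lower. The ratio was 29.0 for Il10, 25.9 for Fgl2, 24.6 for Cd83, 19.5 for Lrrc32, 17.3 for Entpd1, 17.2 for Ebi3 and 4.91 for Nt5e. In the normal library 6 of the 6 genes with enough UMIs passed, against 20.2% of genes (10.5% were lower), at 39.4 for Lrrc32, 36.2 for Ebi3, 26.8 for Cd83, 6.57 for Fgl2, 4.77 for Entpd1 and 4.14 for Nt5e. Il10 had too few UMIs there (0 in Foxp3-positive and 10 in Foxp3-negative cells). The 20.2% of genes include some at 0 UMIs in normal Foxp3-positive cells, which were set to 3 counts. Fcgr2b, at 0 against 39 UMIs, passed in this way at 2.32. Foxp3-negative Ccr7-positive cells had a median of 4176 UMIs in the tumor library, against 4725 in Foxp3-positive cells. Of them 0.227% had an Il10 UMI, 0.598% an Fgl2 and 0.598% an Entpd1 UMI, 0.804% an Lrrc32, 1.18% an Ebi3, 1.59% a Cd83 and 6.6% an Nt5e UMI. In the normal library, with medians of 3995.5 UMIs in Foxp3-positive and 3939 in Foxp3-negative Ccr7-positive cells, shares in the Foxp3-negative Ccr7-positive cells ran from 0.0646% for Il10 to 4.57% for Nt5e.

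Levels were also set against the number of Foxp3 UMIs in the cell. From 1 to 4 or more Foxp3 UMIs, tumor cells had 102.5, 121, 121 and 119 CPM of Lrrc32, while normal cells had 119, 210.1, 206 and 231 CPM. The libraries therefore overlapped in Lrrc32 among cells with 1 Foxp3 UMI and stood apart among those with 4 or more (107 to 131 against 172 to 303 CPM). Nt5e was flat in the tumor library, at 120.2, 127, 113 and 127 CPM. Entpd1 was at 30.8 CPM in tumor cells with 1 Foxp3 UMI and between 56.3 and 65.5 CPM in those with more. Fgl2 was at 224 CPM in tumor cells with 1 Foxp3 UMI and 299.7 CPM in those with 4 or more, against 9.12 and 4.44 CPM (3 UMIs and 1 UMI) in the normal library. Cells with more Foxp3 UMIs were also deeper, with medians of 3938 and 5351 UMIs at the ends of the scale in the tumor library.

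**Figure D3:**
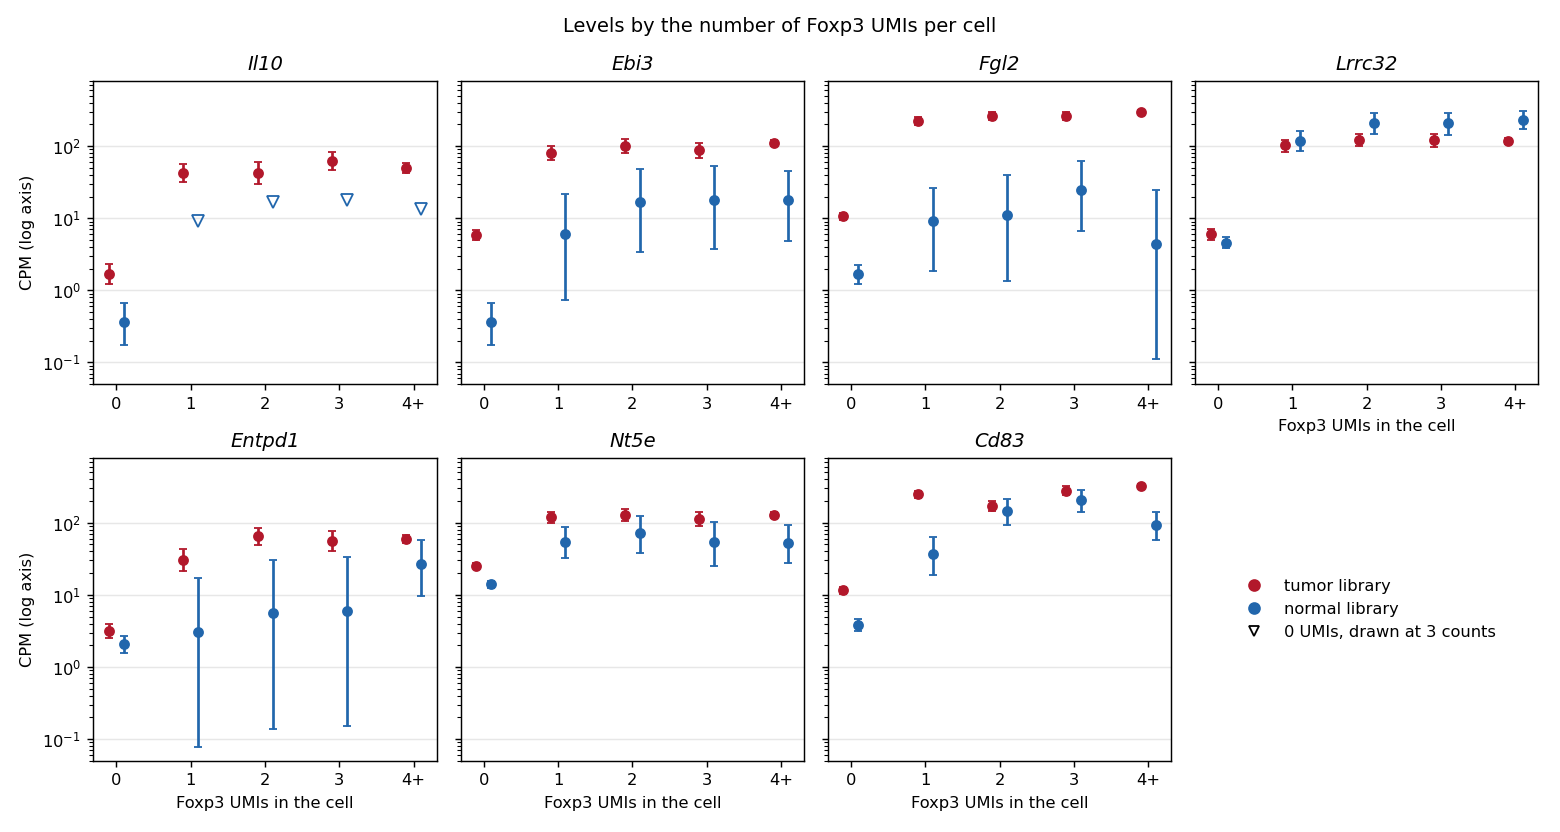
Level of each gene (CPM, log axis) in cells with 0, 1, 2, 3 and 4 or more Foxp3 UMIs, tumor library in red left of normal library in blue. Bars are 95% Poisson intervals and open triangles stand at 3 counts for groups with 0 UMIs. Each gene steps up between 0 and 1 Foxp3 UMI in the tumor library, and Lrrc32 is higher again from 2 Foxp3 UMIs on in the normal library.

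Foxp3-negative cells also differed between the libraries: 6 of 7 genes had at least 1.5-fold higher CPM in the tumor library, where 9.03% of genes did, and none was lower, against 3.46% of genes. The ratio was 15.9 for Ebi3 (8.43 to 33.9), 6.31 for Fgl2 (4.60 to 8.82), 4.64 for Il10 (2.30 to 10.3), 2.99 for Cd83 (2.39 to 3.78), 1.82 for Nt5e (1.60 to 2.07) and 1.52 for Entpd1 (1.07 to 2.17), which ranged on either side of the threshold (1.35 on thinned shares, 1.75 as a mean over cells). Lrrc32 was at 1.30 (1.02 to 1.66), on the other side of 1 from Foxp3-positive cells. Tumor cells with a UMI of one of these genes often carried a UMI of the markers Il2ra, Ikzf2 or Ctla4 as well. Ctla4 was the most frequent of these, with a UMI in 26.0% of all tumor Foxp3-negative cells, against 4.68% for Ikzf2 and 3.14% for Il2ra. Of the 30 tumor Foxp3-negative cells with Il10, 90.0% carried a UMI of Il2ra, Ikzf2 or Ctla4, and of the 108 with Ebi3, 91.7% did, against 28.3% of all tumor Foxp3-negative cells. The share was 83.5% to 88.8% for Cd83, Entpd1, Fgl2 and Lrrc32 and 52.6% for Nt5e (260 of 494 cells).

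In Foxp3-negative cells with none of those 3 markers, 4296 tumor and 5847 normal cells, the levels were low. Fgl2 was at 1.83 CPM in the tumor and 0.877 CPM in the normal library (ratio 2.09, 1.16 to 3.84), and Nt5e at 15.3 and 11.8 CPM (ratio 1.29, 1.09 to 1.53). Entpd1 turned round, at 0.777 CPM in the tumor and 1.49 CPM in the normal library, a ratio of 0.521 (0.258 to 0.997) from 14 and 34 UMIs. Lrrc32 and Cd83 had intervals that include 1, at 1.63 (0.765 to 3.54) and 1.27 (0.715 to 2.24). Il10 had 3 UMIs against 1, too few for a ratio, and Ebi3 had 12 against 2 (ratio 7.60, 1.69 to 69.9). In the cells that did carry one of those markers, Lrrc32 was again lower in the tumor library, at 17.5 against 25.3 CPM (ratio 0.693, 0.535 to 0.899).

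Within the tumor Foxp3-positive cells, 3 of 7 genes were at least 1.5-fold higher in Ccr7-negative than in Ccr7-positive cells, against 9.39% of genes. These were Fgl2 (ratio 2.23, 1.99 to 2.51), Il10 (2.15, 1.65 to 2.85) and Entpd1 (1.90, 1.48 to 2.45). Nt5e (1.27), Ebi3 (1.20), Lrrc32 (1.14) and Cd83 (0.890, 0.809 to 0.980) stayed under the threshold, and none was 1.5-fold lower, against 6.73% of genes. Normal Foxp3-positive cells allowed the comparison for 3 genes, of which Cd83 passed at 2.84 (1.77 to 4.47), against 26.0% of genes (19.9% were lower), beside Lrrc32 at 1.19 and Nt5e at 0.975. The 26.0% can include genes at 0 UMIs in the 31 Ccr7-negative cells, set to 3 counts. In Foxp3-negative tumor cells all 7 passed, against 14.9% of genes (5.2% were lower), from 3.04 for Nt5e to 15.9 for Fgl2. In Foxp3-negative normal cells 4 of 5 passed, against 18% of genes (8.25% were lower), led by Fgl2 at 20.8 and Entpd1 at 13.8.

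Tumor Foxp3-positive cells were also split by Il1rl1, the interleukin-33 receptor ST2 that marks a subset of tissue Treg cells, into 164 cells with a UMI and 983 without. Cd83 was higher in Il1rl1-positive cells, at 479 against 247 CPM (ratio 1.94, 1.74 to 2.16), and with a UMI in 64.0% against 33.9% of cells. It was the 1 gene of 7 past 1.5-fold higher, against 5.83% of genes. Entpd1 was lower, at 38.7 against 58.1 CPM (ratio 0.667, 0.463 to 0.936), at the edge of the threshold, which 10.7% of genes passed. Without cells carrying a B cell or myeloid marker it was 0.967. Lrrc32 stood at 0.729, Fgl2 at 1.36, Ebi3 at 1.28, Nt5e at 0.906 and Il10 at 0.986. After thinning, 48.4% of Il1rl1-positive and 26.4% of Il1rl1-negative cells had a Cd83 UMI.

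A paired alpha and beta receptor was found in 896 tumor Foxp3-positive cells, of which 275 belonged to 110 clones with 2 or more kept cells and 621 to none. Cells of expanded clones had higher Fgl2 (428 against 206 CPM, ratio 2.07, 1.86 to 2.31) and Il10 (64.0 against 40.7 CPM, ratio 1.57, 1.20 to 2.06), 2 of 7 genes, against 8.33% of genes, and none was lower, against 7.35%. Ebi3, Lrrc32, Entpd1 and Nt5e lay between 1.24 and 1.32, and Cd83 at 0.904. Il10 came to 1.29 in cells with 2 or more Foxp3 UMIs and to 1.38 without cells carrying a B cell or myeloid marker, both under the threshold. Il10-positive cells were spread over clones: 131 of them with a paired receptor fell into 126 clones, none with over 2 such cells. For Fgl2, 457 cells fell into 364 clones with at most 5. Cells of a clone are not independent, and the intervals treat them as if they were.

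Co-detection was counted for the 21 pairs in tumor Foxp3-positive cells, as cells with both genes over the number expected from the 2 shares. Of the 21 pairs, 1 reached 1.5: Il10 with Entpd1, in 67 cells where 38.6 were expected (1.74). Entpd1 was detected in 40.9% of Il10-positive cells (33.3 to 48.8%) and 20.7% of Il10-negative ones (18.2 to 23.3%). The ratio was 1.45 in Ccr7-negative cells (46 cells, 31.8 expected) and 2.65 in Ccr7-positive cells (21 cells, 7.94 expected). Gene-positive cells were deeper than negative ones, with medians of 5245.5 against 4631 UMIs for Il10. At equal depth the pair was in 20 thinned cells where 11.6 were expected (1.73), and Il10 with Nt5e came to 1.5 from 31 cells.

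The 2 ectoenzymes, which act in sequence, were seen together in 1.19 times the expected number of cells, and in 1.29 times after thinning. Next after the leading pair came Ebi3 with Entpd1 (1.39), Il10 with Nt5e (1.34), Fgl2 with Entpd1 (1.33) and Ebi3 with Cd83 (1.33). Lrrc32 was close to independent of Fgl2 (1.00) and of Entpd1 (0.970), and Entpd1 of Cd83 (0.960). Normal Foxp3-positive cells were too few for this, with 4 of the 7 genes in at most 10 cells each.

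**Figure D4:**
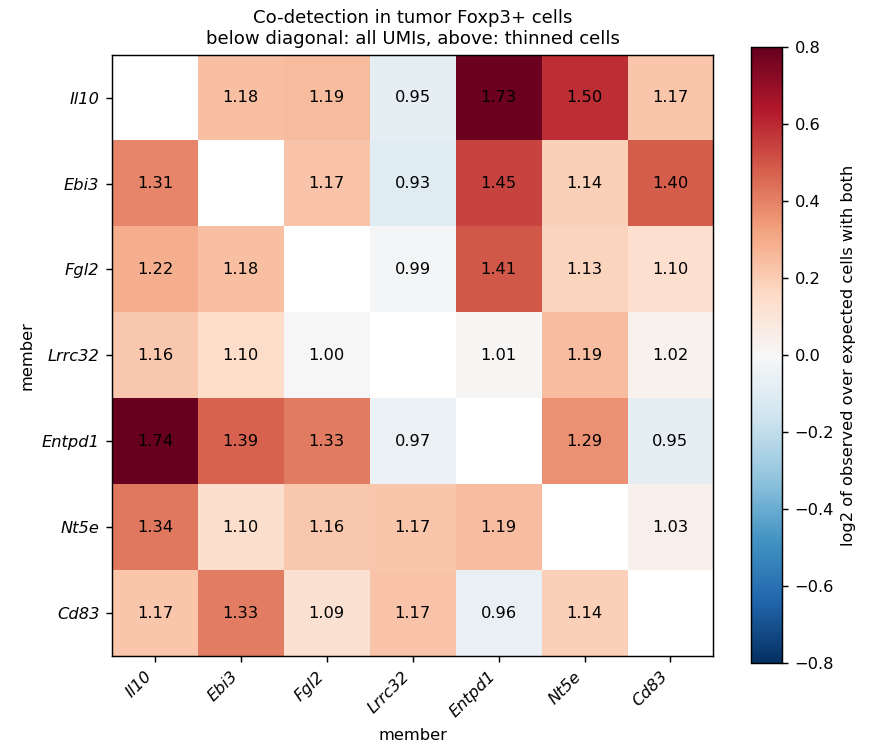
Cells with a UMI of both genes over the number expected from the 2 shares, in tumor Foxp3-positive cells, for all UMIs below the diagonal (1147 cells) and thinned cells above it (1079 cells). Colour is the log2 of the printed ratio. Il10 with Entpd1 is highest on both sides of the diagonal, at 1.74 and 1.73.

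Counting the 7 genes per cell, 87.8% of tumor Foxp3-positive cells had a UMI of at least 1 and 44.6% of at least 3, against 61.2% and 7.28% of normal ones. After thinning, 77.2% and 20.0% of tumor cells did, against 48.7% and 1.55% of normal cells. All 7 were found in 2 tumor cells, while no normal Foxp3-positive cell had over 4.

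**Figure D5:**
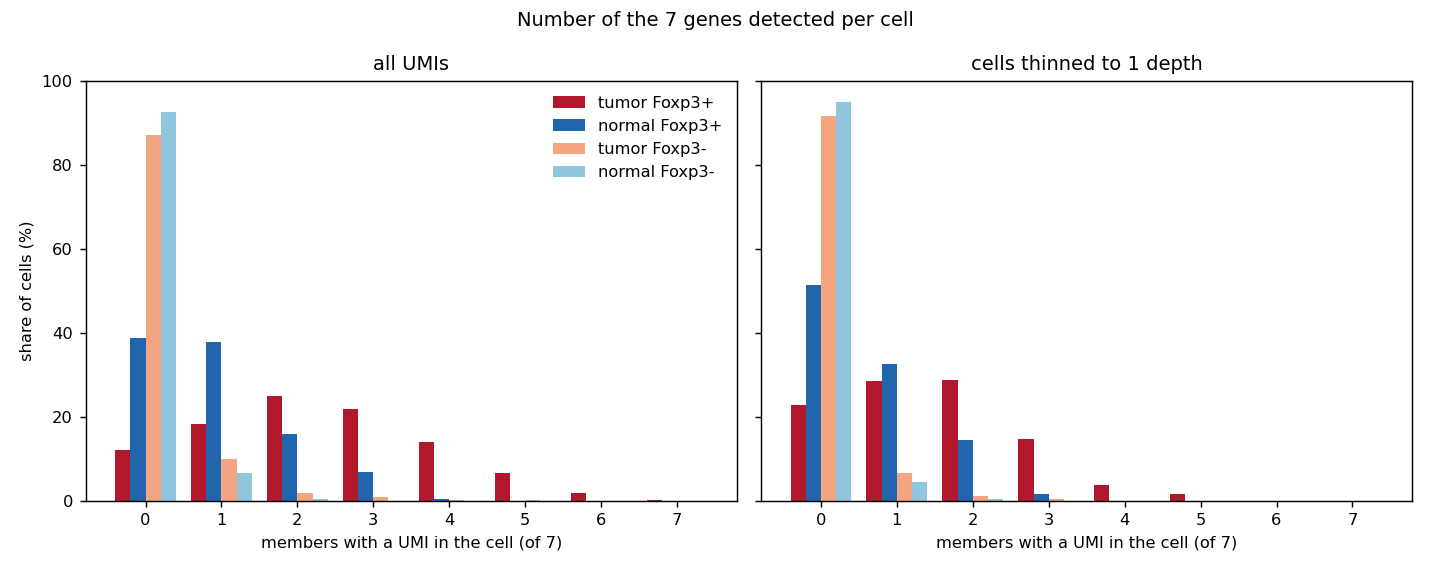
Share of cells (%) by how many of the 7 genes had a UMI in the cell, for all UMIs on the left and cells thinned to 1 depth on the right. Bars run from tumor Foxp3-positive through normal Foxp3-positive and tumor Foxp3-negative to normal Foxp3-negative cells. Tumor Foxp3-positive cells are spread around 2 genes, normal Foxp3-positive cells mostly have 0 or 1.

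For each gene, the genes most alike in pattern were taken as the 3 with the highest Pearson correlation of log2(CPM + 10) over the 8 groups, among 9831 genes. The groups share libraries and were made by the Foxp3 and Ccr7 split, so these are descriptions. They were Gm4951, Gm13522 and Cnih2 for Il10 (0.997, 0.996, 0.994), Itgav, Cd86 and Pigx for Ebi3 (0.996, 0.995, 0.995) and Impa2, Tap1 and Lpin2 for Fgl2 (0.995, 0.993, 0.993). For Lrrc32 they were Snx18, Fabp5 and Flicr (0.993, 0.980, 0.979), for Entpd1 Uqcrc2, Dbndd2 and Ctsb (0.998, 0.998, 0.995), for Nt5e Paics, Gbp3 and Pdcd1 (0.991, 0.991, 0.974) and for Cd83 Dusp4, Swap70 and Dgat2 (0.988, 0.988, 0.986). A correlation does not reflect the size of the differences. Over the groups Paics ran from 60.4 to 82.9 CPM, against 12.5 to 136 CPM for Nt5e. Uqcrc2 ran from 101 to 155 CPM, against 0.971 to 67.9 CPM for Entpd1. Among the 7 themselves, Ebi3 and Fgl2 were most alike (0.952) and Il10 and Lrrc32 least (0.361).

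Of the list of Il10 regulators and receptor signalling genes most were higher in the tumor library: of 12 genes, 11 were at least 1.5-fold higher and none lower in Foxp3-positive cells, against 28.5% and 10.2% of genes, with a median log2 ratio of 0.94. Among Foxp3-positive Ccr7-negative cells 6 were higher and Jak1 was lower (0.617), against 22.2% and 26.8% of genes. Of the 6, Prdm1 had 2 normal UMIs (ratio 2.73, 0.743 to 22.7) and Socs3 had 10 (ratio 1.63, 0.879 to 3.42). Both intervals include 1, and those of the other higher genes did not. There Bhlhe40 was at 2.12 and Maf at 1.14. In all Foxp3-positive cells Bhlhe40, a transcription factor known to restrain Il10 in T cells, was at 929 against 173 CPM (ratio 5.36). The Il10 activators Prdm1 (37.7 against 10.0 CPM, ratio 3.77) and Maf (175 against 67.8 CPM, ratio 2.58) and the receptor chain Il10ra (93.4 against 23.3 CPM, ratio 4.0) were higher as well, and Jak1 (307 against 392 CPM, ratio 0.783) was the one that was not. Of 12 other suppressor effectors, 10 were higher and none lower in Foxp3-positive cells, against 28.5% and 10.2% of genes. Their median log2 ratio was 1.49. Restricted to Ccr7-negative cells, 7 were higher and 3 lower, against 22.2% and 26.8% of genes. The 3 lower ones were Nrp1 at 0.312, Areg at 0.589 and Icos at 0.650, and Gzmb was at 3.07. Lag3, an inhibitory receptor, had 447 UMIs in tumor and 0 in normal Foxp3-positive cells, as Il10 did, and the granzyme gene Gzmb was at 503 against 30.0 CPM (ratio 16.8). The coreceptor Nrp1 (67.1 against 96.7 CPM, ratio 0.694) was lower without passing the threshold, at a ratio close to that of Lrrc32.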

How the data were processed

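Live CD4+ lung cells of tumor-bearing and normal mice were profiled, 1 expression and 1 receptor library per tissue. The authors deposited raw UMI counts per gene and cell, made with Cell Ranger 3.1.0 per the file headers and on mm10 per the submitters' processing notes, with receptor contigs beside them. Whether the authors removed doublets is not given in the sources used here.

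Kept were cells with at least 500 genes and under 10% mitochondrial UMIs that carried at most 2 productive alpha and 1 productive beta chain, 14217 in all. Cells with more chains were left out as possible doublets, and no doublet caller was run. Failing these were 120 and 533 tumor cells and 61 and 602 normal cells. Cells were grouped by a Foxp3 and a Ccr7 UMI, UMIs were summed per group, and sums were scaled to CPM. With 1 library per tissue no test across samples exists, and the counts were not fitted with a model. Differences are ratios of CPM with 95% intervals (exact Poisson for levels, exact conditional for ratios, Clopper-Pearson for shares), which cover counting error only. A ratio needed 20 UMIs over both groups and was called from 1.5-fold on. Against 0 UMIs it was taken to 3 counts over the group. In a small group this can call a gene higher where it had 0 UMIs, and the shares of all genes can include such genes. Thinning drew 2417 UMIs per cell without replacement, a depth that 10% of the kept cells of the shallower library did not reach, and left out 393 tumor and 708 normal cells. Over the 31053 gene IDs, 30934 matched the name table. Coordinates and upstream sequences are RefSeq's for GRCm38.p6. Likeness used genes with at least 100 UMIs and a pseudocount of 10 CPM. The calculations were checked on simulated data. One other way of splitting cells is not reported here. The genes, the marker and pathway lists, and the rule for named genes (all 7, the list genes, and the 3 most alike per gene) were chosen with earlier results of these data known. Python 3.11.15, numpy 2.4.6, scipy 1.17.1, pandas 2.3.3 and matplotlib 3.10.9 were used.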

Additional observations from a re-analysis of the deposited data

Results flagged for a closer look

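Cd83 went opposite ways with Ccr7 in the libraries: its Ccr7-negative over Ccr7-positive ratio in Foxp3-positive cells was 0.890 (interval 0.809 to 0.980) in the tumor library and 2.84 (1.77 to 4.47) in the normal library, where the Ccr7-negative group had 29 UMIs in 31 cells. Without cells carrying a B cell or myeloid marker the tumor ratio was 1.22, on the same side of 1 as the normal one. The difference between these ratios was not tested.

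Lrrc32 went opposite ways by Foxp3: its tumor over normal ratio was 0.643 (0.541 to 0.767) in Foxp3-positive cells and 1.30 (1.02 to 1.66) in Foxp3-negative cells. Among Foxp3-negative cells with a UMI of Il2ra, Ikzf2 or Ctla4, which held 136 of 154 tumor and 111 of 125 normal Lrrc32 UMIs, the ratio was 0.693 (0.535 to 0.899), the same way as in Foxp3-positive cells. In the others it was 1.63, with an interval of 0.765 to 3.54 that includes 1. Cells with such a UMI were 1692 of 5988 tumor and 1029 of 6876 normal Foxp3-negative cells. The difference by Foxp3 was not tested.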

How the results depend on the processing

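No paired analysis was possible because each tissue had 1 library. Of the counts of genes or pairs past a threshold, 158 alternatives left them within 1.5 times and 15 did not. Of the single-gene ratios, 811 stayed, 73 moved beyond their counting interval and 2 that had passed the threshold crossed 1. Another 17 crossings of 1 were of ratios under the threshold, among them Lrrc32 by clone (0.912) and by Il1rl1 (1.06) without marked cells. In Foxp3-positive cells 6 of 7 genes were higher in the tumor library under each alternative run, and the ratio ranged from 5.37 to 44.6 for Il10 (a bound), 23.5 to 46.4 for Fgl2, 4.03 to 8.68 for Ebi3, 4.29 to 30.4 for Entpd1 and 0.550 to 0.763 for Lrrc32, whose lower call ended on thinned shares, without the receptor filter and at 2-fold. With Foxp3-negative cells restricted to 0 UMIs of Il2ra, Ikzf2 and Ctla4, the tumor over normal count was 2 of 5 tested, Entpd1 turned to 0.521, and the Ccr7 count in the tumor library was 3 of 3 tested. Among Foxp3-positive Ccr7-negative cells the tumor count was 3 on thinned shares, where Il10 turned to 0.940 because normal cells are set to the floor, and 3 without cells carrying a B cell or myeloid marker. That last filter also gave 2 genes by Il1rl1 and 2 pairs, and thinning gave 2 pairs. A minimum of 100 UMIs left fewer genes and counts of 3 by Foxp3 in the normal library, and 0 and 2 by Ccr7 in its Foxp3-positive and Foxp3-negative cells. Clonal expansion gave 1 gene with 2 or more Foxp3 UMIs, 1 with median of ratios scaling and 1 at 2-fold, where the Il1rl1 split and the pairs gave 0. Other causes were not tested. The alternatives without shared barcodes, with 2 or more Ccr7 UMIs, and without Cst3 and Cd79b in the marker lists were added after seeing the data.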
